A study of Bos taurus with 21 samples.

Results

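Chemokines are small secreted proteins that bind receptors on the surface of white blood cells and guide their movement, and in the udder they recruit cells from blood into milk. They are named by the spacing of their first cysteines (CXC, CC, C and CX3C) and act through receptors that couple to inhibitory G proteins. Ligands of the CXC group with a glutamate-leucine-arginine motif, such as IL8, attract neutrophils through CXCR1 and CXCR2, whereas the CXCR3 ligands CXCL9, CXCL10 and CXCL11 are induced by interferon and attract activated T cells.

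The genes described here were all symbols in the count tables that began with CCL, CXCL, CCR, CXCR, XCL, XCR or CX3C followed by a digit, together with IL8. The rule found 48 of the 13570 gene rows, of which 29 were ligands and 19 were receptors. At least 1 read was counted for 46 of them, a mean of at least 10 counts per cow was reached by 38, and 26 had a count in every cow. No read was counted on CXCR1, a receptor for IL8, or on CCL21, a ligand of CCR7, in any of the 21 cows. Over the pooled counts of all cows this allows up to 0.00945 CPM (counts scaled to a common library size), for counting error only. The bound for a single cow is higher. The tables gave the receptor CXCR2 under a symbol that an annotation table of the bovine genome also lists as another name of CXCR1, so reads under CXCR2 may belong to either paralog. Reads of similar paralogs, such as CXCL2 and CXCL3, could likewise be shared between symbols.

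RNA was sequenced from the somatic cells of the milk of 21 Holstein cows of 1 farm, 1 sample per cow, with 9 cows in the high milk yielding group (HY) and 12 in the low group (LY). No treatment was given in either group. Parity was 2 to 4 and the lactation period, in days, was 41 to 268 in HY and 52 to 270 in LY. Breeding values of milk yield, for which no unit is given, were 181 to 468 in HY and -404 to 86.9 in LY.

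Counts on genes were 7878557 to 28541904 per cow, and the 48 genes took 0.220% to 3.47% of them. The HY cows 3262 and 3280 stood apart, with trimmed mean of M-values (TMM) factors of 0.460 and 0.498 against 0.749 to 1.48 in the other cows. Their mammary epithelial index, explained below, was the highest at 12.5 in both. The tissue held markers of several cell types. Of the 12 neutrophil markers searched, 6 reached a mean of 10 counts. These were S100A8, S100A9, S100A12, TREM1, PADI4 and VNN2, and whether they are particular to neutrophils was not tested. PGLYRP1 and CD177 were below that mean, and CSF3R, FPR1, MMP25 and MMP8 were not among the rows used. Of the 12 macrophage markers 9 reached it, as did 11 of 12 T cell and 13 of 14 epithelial markers. The summed B cell markers were 4.71 to 287 CPM in HY and 7.01 to 44.5 in LY, and those of dendritic cells 21.0 to 244 and 35.0 to 338.

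**Figure D1:**
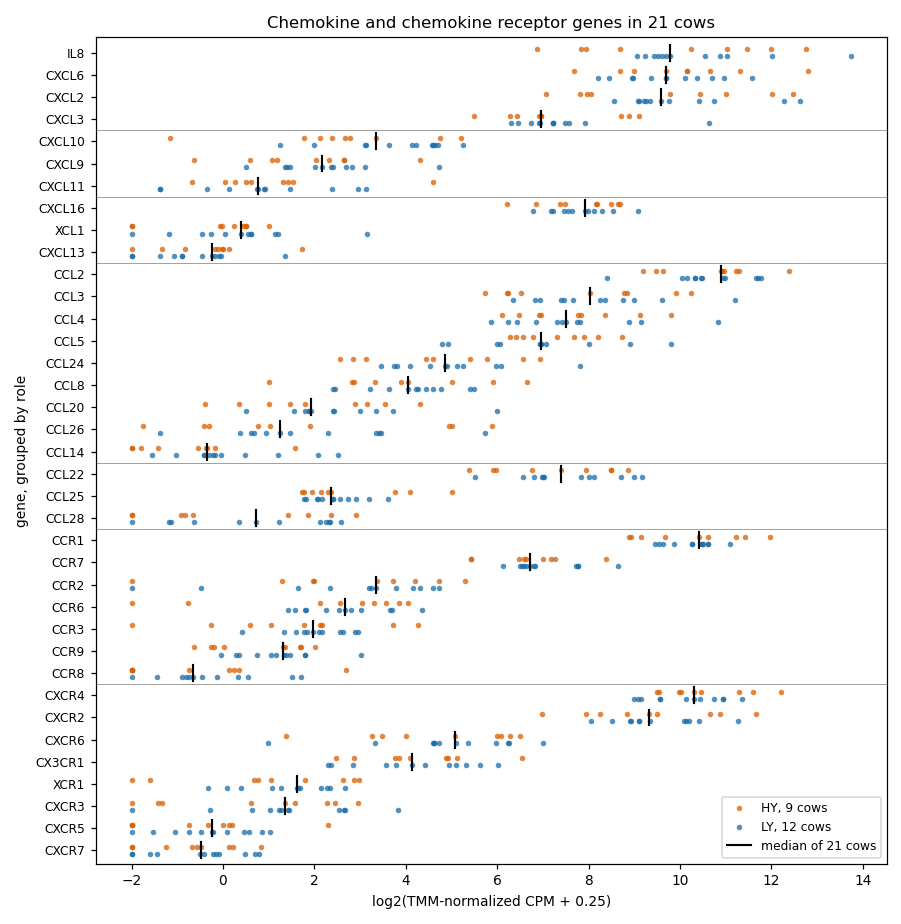
Level of 37 of the 38 genes with a mean of at least 10 counts, as log2(TMM-normalized CPM + 0.25) on the horizontal axis, with 1 point per cow (orange: 9 HY cows, blue: 12 LY cows) and a black line at the median of 21 cows. The points of both groups overlap in every gene drawn, and the widest spread is that of CCL26, from 0.0490 to 58.9 CPM.

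Counts were concentrated on a few genes. IL8, CCL2, CXCL2 and CXCR4 held 55.9% of all counts on the 48 genes, and with CCR1, CXCL6, CXCR2 and CCL3 the share was 86.5%. These are counts per gene, which also depend on transcript length. At the other end CCL11, CCL19, CCL27, CCR4, CCR10, CXCL12, CXCL14 and CXCL17 had a mean below 10 counts, and CCR4 and CCL11 had 2 and 3 counts over all cows. LY cow 7643 held the highest CPM of 10 of the 38 genes, namely IL8, CXCL2, CXCL3, CCL3, CCL4, CCL20, CCL22, CCR6, CCR7 and CXCL16. HY cow 3280 was lowest in 7 of the 26 genes with a count in every cow and HY cow 3064 in 6 of them.

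Because milk somatic cells are a mixture, each gene was set against 4 cell type indices. An index is the mean log2(TMM-normalized CPM + 0.25) of the markers of a cell type, and none of the 48 genes is part of one. A slope is the log2 change of a gene per doubling of an index, from the quasi-likelihood test of edgeR over 21 cows, with p-values adjusted by the Benjamini-Hochberg method over 12333 genes and a call at an adjusted p under 0.05. In bulk RNA, fewer cells of a type and less RNA per cell cannot be told apart. The indices were not independent: Spearman's rho over the 21 cows was -0.69 between the macrophage and the epithelial index, -0.38 between the T cell and the epithelial index and 0.05 between the neutrophil and the macrophage index. The T cell index also had a rho of 0.60 with the counts on genes, and its median was 5.59 in 5 cows of higher mapping rate against 4.48 in the other 16.

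On the neutrophil index, 9 of the 46 genes were called with a positive slope, against 5.12% of all genes, and 2 with a negative slope, against 1.95%. For the macrophage index the numbers were 2 positive against 8.5% and 3 negative against 8.42%. For the T cell index they were 7 positive against 3.6% and 4 negative against 4.39%, and for the epithelial index 5 positive against 11.9% and 8 negative against 9.37%. With library totals in place of TMM, positive and negative calls were 12 and 1 on the neutrophil and 10 and 3 on the macrophage index. On the T cell index they were 13 and 2. The median slope of all genes on these 3 indices moved to 0.26, 0.36 and 0.22. The shares of all genes called with library totals are not given, so these splits are not read as a result about the 46 genes. The median slope of the 46 genes on the neutrophil index was 0.39 with TMM and 0.63 with library totals, and that of all genes was -0.03 with TMM. At least 1 index called 28 of the 46 genes, against 36% of all genes, and 19 of the 28 were called by 1 index alone. The 10 calls that held under every alternative processing and without each cow in turn were those of CXCR2, CCR1, CXCL2, CCL3 and XCR1 on the neutrophil index, CCL8 on the macrophage index, CXCR3 and CXCR6 on the T cell index, and CCL26 and CCL28 on the epithelial index.

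**Figure D2:**
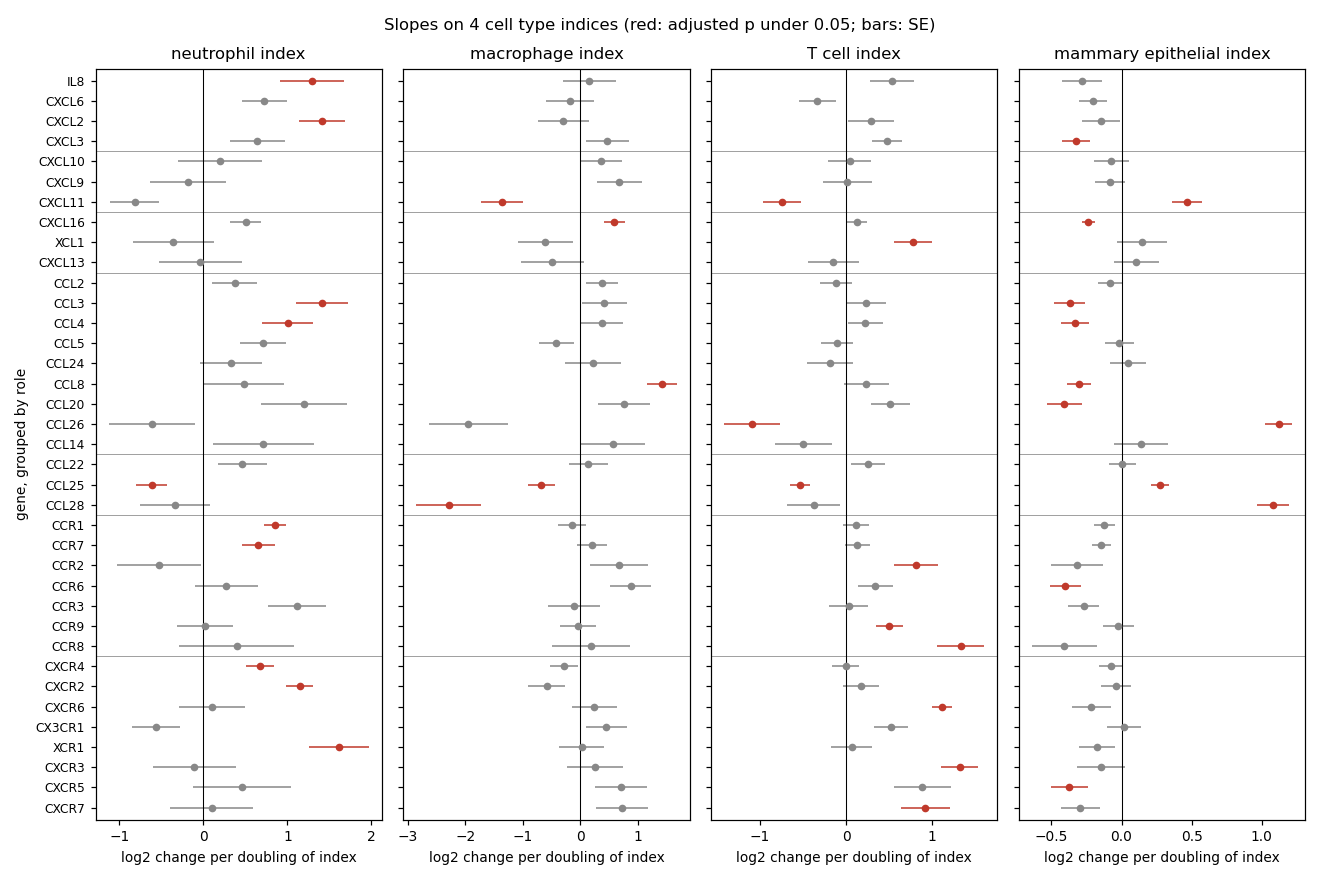
Slope of 37 of the 38 genes with a mean of at least 10 counts on each of 4 cell type indices (horizontal axis: log2 change per doubling of the index, bars: standard error, red: adjusted p under 0.05). The red points of the T cell panel to the right of 0 are mostly receptors, such as CXCR6 at 1.12 and CXCR3 at 1.32, and those of the epithelial panel to the right are ligands, such as CCL26 at 1.12 and CCL28 at 1.08.

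The neutrophil attractants IL8, CXCL2, CXCL3 and CXCL6 and the receptor CXCR2 varied widely between cows. IL8 was 116 to 6882 CPM in HY (median 1206) and 533 to 13736 in LY (median 849). In order of lactation period, IL8 was 227 CPM in HY cow 2814 at 41 days, 533 in LY 3407 at 52, 823 in LY 2893 at 59, 116 in HY 3262 at 65, 606 in LY 3369 at 79, 1206 in HY 3075 at 101, 686 in LY 3198 at 102 and 414 in HY 3280 at 108 days. From 167 days on it was 731 in LY 3161, 2847 in HY 2920, 4076 in HY 3235, 1883 in LY 3135, 247 in HY 3064, 875 in LY 3264, 13736 in LY 7643, 2083 in LY 7628, 4114 in LY 7598, 1504 in LY 3272, 2099.5 in HY 3057, 6882 in HY 3014 and 784 in LY 2864. The highest value of the 8 cows up to 108 days was 1206 CPM, and 9 of the 13 later cows were above it. Since that mark was taken from the same values, the count is a description and not a test. CXCL2 was 135 to 5689 in HY (median 883) and 377 to 6336 in LY (median 711). CXCR2 was 127 to 3227 in HY (median 641) and 267 to 2483 in LY (median 599.8). For these genes the groups overlapped over nearly their whole range.

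CXCR2 rose with the neutrophil index by 1.15 (SE 0.161, adjusted p = 7.19e-05), CXCL2 by 1.41 (SE 0.269, adjusted p = 0.00167) and IL8 by 1.30 (SE 0.379, adjusted p = 0.0368). CXCR2 and CXCL2 were called without each cow in turn. The call of IL8 was lost in 6 such fits, those without LY cows 2864 and 3407 and HY cows 3014, 3064, 3235 and 3280, with a highest adjusted p of 0.0830 without HY cow 3014. It was also lost without both HY cows 3262 and 3280 (adjusted p = 0.0617) and with the 4 indices in 1 fit (0.82, adjusted p = 0.127). CXCL6, which RefSeq lists as CXCL5, had a slope of 0.73 (SE 0.265, adjusted p = 0.101) and CXCL3 was not called on this index. CXCL3 fell with the epithelial index by 0.32 per doubling (adjusted p = 0.0233), but not with the 4 indices in 1 fit (adjusted p = 0.241). This call was also lost in 4 of 21 fits without 1 cow, those of HY cows 3262 and 3280 and LY cows 3369 and 7643. The highest adjusted p was 0.398, without LY cow 7643. GRO1, a ligand of the same group that RefSeq lists as CXCL1 and that the symbol rule did not take, was 278 to 10356 CPM and was likewise highest in LY cow 7643.

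CCL3 and CCL4, the macrophage inflammatory proteins, were 53.3 to 1204 and 68.7 to 889 CPM in HY and 81.4 to 2354 and 58.0 to 1810.2 in LY. CCL3 rose with the neutrophil index by 1.41 (SE 0.312, adjusted p = 0.00612) and CCL4 by 1.0 (SE 0.301, adjusted p = 0.0418). The CCL4 call was lost in 14 of 21 fits without 1 cow, up to an adjusted p of 0.102 without HY cow 3235, whereas CCL3 was called in all 21. With the 4 indices in 1 fit CCL3 was still called on the neutrophil index and CCL4 was not (adjusted p = 0.230). Both fell with the epithelial index, by 0.37 (adjusted p = 0.0186) and 0.33 (adjusted p = 0.0160), and LY cow 7643 decided both: without it the adjusted p was 0.147 for CCL3 and 0.143 for CCL4. CCL3 was also not called on the epithelial index without HY cow 3280. With the 4 indices in 1 fit neither CCL3 (adjusted p = 0.217) nor CCL4 (adjusted p = 0.130) was called on it.

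CCL8, a monocyte attractant, followed the macrophage index. It was 1.77 to 101 CPM in HY (median 14.6) and 5.04 to 44.8 in LY (median 18.8). It rose by 1.42 per doubling (SE 0.255, adjusted p = 0.000809) and fell by 0.31 per doubling of the epithelial index (adjusted p = 0.0107), the latter not without HY cow 2814 (adjusted p = 0.108). In a fit with all 4 indices the epithelial slope of CCL8 turned to 0.05 (SE 0.112, adjusted p = 0.882). CXCL16, a membrane-bound ligand of CXCR6, rose with the macrophage index by 0.59 (SE 0.177, adjusted p = 0.0238). The call was lost without HY cow 3280 (adjusted p = 0.113), LY cow 7643, or both HY cows 3262 and 3280 (adjusted p = 0.0563). It was also lost in the 16 cows of lower mapping rate and with the 4 indices in 1 fit (0.38, adjusted p = 0.218). CXCL16 fell with the epithelial index by 0.24 (SE 0.0465, adjusted p = 0.000518) without exception among the fits that left out 1 cow. This second call was lost with the 4 indices in 1 fit (adjusted p = 0.346). Its values were 74.4 to 411 CPM in HY (median 286) and 110.3 to 540.5 in LY (median 220.3).

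CCL2, the monocyte attractant with the second highest count, was called on no index, with a macrophage slope of 0.38 (SE 0.271, adjusted p = 0.376). It was 585 to 5383 CPM in HY (median 1937) and 339 to 3486 in LY (median 1415). CCL22, a ligand of CCR4 made by dendritic cells and macrophages, was 41.2 to 464 CPM in HY and 45.3 to 579 in LY, and CCL24, an eosinophil attractant, was 5.61 to 122 and 10.7 to 226. CCL5, which attracts T cells, was 77.4 to 427 in HY and 27.5 to 887 in LY, with the highest value in LY cow 2893. None of these 3 was called on an index either. Others with a mean of at least 10 counts and no index call included CCL14, CCR3, CX3CR1, CXCL6, CXCL9, CXCL10 and CXCL13.

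CCL20, the ligand of CCR6, was below 20 CPM in all cows but 1. In HY it was 2.50 CPM in cow 2814, 19.5 in 2920, 7.18 in 3014, 8.65 in 3057, 0.513 in 3064, 3.21 in 3075, 11.5 in 3235, 1.02 in 3262 and 1.77 in 3280. In LY it was 1.16 CPM in cow 2864, 9.96 in 2893, 3.44 in 3135, 5.11 in 3161, 3.41 in 3198, 3.21 in 3264, 7.76 in 3272, 3.57 in 3369, 2.67 in 3407, 5.05 in 7598, 12.9 in 7628 and 63.3 in 7643. The last value was 17.7 times the median of all cows. CCL20 fell with the epithelial index by 0.41 (SE 0.125, adjusted p = 0.0200), not without LY cow 7643 (adjusted p = 0.325) or HY cows 3262 and 3280. The call was also lost with the higher or lower mapping rate as a covariate and in the 16 cows of lower mapping rate. With the 4 indices in 1 fit the slope was -0.43 (adjusted p = 0.379). CCR6 itself fell with the same index by 0.40 (SE 0.109, adjusted p = 0.00958), in each of the 21 fits without 1 cow but not with the 4 indices in 1 fit (adjusted p = 0.621) or in the 16 cows of lower mapping rate, and was 0 to 16.4 CPM in HY and 2.43 to 20.3 in LY.

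CCL26, an eosinophil attractant, and CCL28, a mucosal chemokine of epithelia that attracts cells with CCR10, followed the epithelial index. In HY, CCL26 was 0.0490 CPM in cow 2814, 1.80 in 2920, 3.49 in 3014, 0.563 in 3057, 1.46 in 3064, 30.3 in 3075, 0.50 in 3235, 58.9 in 3262 and 32.0 in 3280. In LY it was 9.94 CPM in cow 2864, 52.7 in 2893, 1.36 in 3135, 1.68 in 3161, 1.04 in 3198, 4.68 in 3264, 1.28 in 3272, 10.7 in 3369, 2.51 in 3407, 10.5 in 7598, 2.14 in 7628 and 0.135 in 7643. The 7 cows with the most CCL26, at 9.94 CPM or more, were all among the 8 with the highest epithelial index. CCL28 was 0 to 7.27 in HY (median 0.385) and 0 to 5.72 in LY (median 1.74). CCL26 rose by 1.12 per doubling (SE 0.0952, adjusted p = 1.3e-09) and CCL28 by 1.08 (SE 0.114, adjusted p = 5.95e-08). Spearman's rho with the epithelial index was 0.95 for each. Without both HY cows 3262 and 3280 both were still called. CCL28 also fell with the macrophage index by 2.29 (SE 0.565, adjusted p = 0.00779), a slope that was -0.39 (adjusted p = 0.764) with the 4 indices in 1 fit, and CCL26 fell with the T cell index by 1.09 (adjusted p = 0.0403), the latter not in 10 of 21 fits without 1 cow, up to an adjusted p of 0.123 without HY cow 3280.

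CXCL11, CCL25 and CXCL12 were positive on the epithelial index as well. CXCL11 was 2.25 CPM in HY cow 2814, 1.28 in 2920, 2.43 in 3014, 0.773 in 3057, 0.947 in 3064, 1.17 in 3075, 0.375 in 3235, 2.64 in 3262 and 23.8 in 3280. In LY it was 5.01 CPM in cow 2864, 7.56 in 2893, 1.60 in 3135, 0.134 in 3161, 0.852 in 3198, 1.42 in 3264, 0.534 in 3272, 8.53 in 3369, 1.46 in 3407, 2.52 in 7598, 1.64 in 7628 and 0.135 in 7643. It rose with the epithelial index by 0.47 (SE 0.108, adjusted p = 0.00271), in all 21 fits without 1 cow, but not with the 4 indices in 1 fit (0.19, adjusted p = 0.694). It fell with the macrophage index by 1.36 (adjusted p = 0.0122) and the T cell index by 0.75 (adjusted p = 0.0385), and neither held without HY cow 3280, at adjusted p = 0.170 and 0.540. The T cell call was lost in 10 such fits.

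CCL25, the ligand of CCR9, was 3.08 to 31.8 CPM in HY (median 4.64) and 3.19 to 11.9 in LY (median 5.07) and was highest in HY cow 3280. It was called by all 4 indices. The epithelial slope was 0.27 (SE 0.0653, adjusted p = 0.00348), and it was called in all fits without 1 cow. It was not called without both HY cows 3262 and 3280 (0.18, adjusted p = 0.0755), with library totals (0.14, adjusted p = 0.162) or with the 4 indices in 1 fit (0.14, adjusted p = 0.461). The slopes on the neutrophil (-0.62), macrophage (-0.68) and T cell (-0.54) index all lost their call without HY cow 3280, at adjusted p of 0.712, 0.393 and 0.135, and the first was lost in 11 and the second in 8 of 21 such fits. CXCL12, the ligand of CXCR4, had 98 counts in all, of which 73 were in HY cow 3262. It was 0 to 6.21 CPM in HY (median 0.0857) and 0 to 0.193 in LY (median 0). Its epithelial slope of 0.95 (adjusted p = 0.000610) and neutrophil slope of -3.72 (adjusted p = 0.0345) were not called without that cow, at adjusted p of 0.194 and 0.105. The neutrophil call was also lost without HY cows 3057 and 3235 and LY cow 3161.

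The receptors with a positive call on the T cell index were CXCR6 and CXCR3, which guide effector T cells to inflamed tissue, and CCR8, CXCR7, CCR9 and CCR2. Other receptors known from lymphocytes were not called on it, with slopes of 0.13 for CCR7 (adjusted p = 0.595), -0.0033 for CXCR4 (adjusted p = 0.993), 0.89 for CXCR5 (adjusted p = 0.0985) and 0.52 for CX3CR1 (adjusted p = 0.0965). CXCR6 was 2.36 to 89.6 CPM in HY (median 33.5) and 1.72 to 127 in LY (median 30.1). CXCR3 was 0 to 7.46 in HY (median 2.32) and 0 to 13.9 in LY (median 2.30). Both were highest in LY cow 3264, and both groups overlapped throughout. CXCR6 rose by 1.12 per doubling (SE 0.119, adjusted p = 1.01e-06) and CXCR3 by 1.32 (SE 0.214, adjusted p = 0.000392). These were also the 2 of 11 calls that remained within the 16 cows of lower mapping rate, where the indices were recomputed.

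CCR8, a receptor of regulatory and type 2 T cells, rose by 1.33 (SE 0.272, adjusted p = 0.00439), in all 21 fits without 1 cow but not within the 16 cows. It was 0.931 CPM in HY cow 2814, 6.25 in 2920, 0.845 in 3014, 0.352 in 3057, 1.03 in 3064 and 0 in 3075, 3235, 3262 and 3280. In LY it was 0.290 CPM in cow 2864, 0 in 2893, 0.320 in 3135, 1.01 in 3161, 0.474 in 3198, 2.61 in 3264, 3.03 in 3272, 0.346 in 3369, 0.661 in 3407, 0.120 in 7598, 0.382 in 7628 and 1.21 in 7643. HY cow 2920, with 6.25 CPM, held 16.4 times the median of all cows. XCL1, a chemokine of activated CD8 T cells, rose by 0.78 (SE 0.221, adjusted p = 0.0321), not without LY cow 3264 (adjusted p = 0.214), which held its highest value of 8.67 CPM. Its other values were up to 1.78 in HY (median 0.931) and its LY median was 1.14.

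CXCR7 (ACKR3, a scavenger of CXCL12), CCR9 and CCR2 were called with slopes of 0.92, 0.50 and 0.81 at adjusted p of 0.0436, 0.0438 and 0.0481. These calls were lost in 14, 8 and 15 of the 21 fits without 1 cow, up to an adjusted p of 0.150 for CXCR7 and 0.147 for CCR2, both without HY cow 3280, and 0.178 for CCR9 without LY cow 3264. CXCR7 was 0 to 1.52 CPM in HY and 0 to 1.48 in LY, with medians of 0.423 and 0.552. CCR9 was 0.393 to 3.81 and 0.720 to 7.89, with medians of 2.22 and 2.14, and CCR2 was 0 to 39.1 and 0 to 26.1, with medians of 10.1 and 9.56. CCL11 was called with a slope of -1.0 (adjusted p = 0.0491) on 3 counts in all cows, 1 each in 3 cows, and lost the call in 17 fits. CXCR5, the follicular homing receptor, had an epithelial slope of -0.37 (adjusted p = 0.0486) that was lost in 15 fits, up to 0.400 without HY cow 2814. That cow held the highest CXCR5, 4.70 CPM, 16 of the 37 counts of CCR10 and the highest summed B cell markers, 287 CPM, of which the marker BLK was not highest there (5.19 CPM against 17.5 in LY cow 3272), whose part in the CXCR5 result was not tested.

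The remaining receptors called on the neutrophil index were CCR1, XCR1, CXCR4 and CCR7. CCR1, a receptor of CCL3 and CCL5, was 471 to 4023 CPM in HY (median 1373) and 705 to 2178 in LY (median 1319). It rose by 0.85 per doubling (SE 0.129, adjusted p = 0.000161). XCR1, the receptor of XCL1 known from cross-presenting dendritic cells, was 0 to 7.61 CPM in HY (median 1.83) and 0.551 to 6.15 in LY (median 2.85) and rose by 1.61 (SE 0.356, adjusted p = 0.00599). In the annotation XCR1 is separated from CCR1 by 1 gene, and rho between these receptors was 0.88. XCR1 had a rho of 0.06 with the T cell index, and its ligand XCL1 one of -0.29 with the neutrophil index. CXCR4, a receptor on most leukocytes, rose by 0.67 (SE 0.171, adjusted p = 0.0160), not without HY cow 3014 (adjusted p = 0.105), which held its highest value of 4748 CPM. Its range was 719.9 to 4748 in HY (median 1262) and 513 to 2612 in LY (median 1190.4). CCR7, which guides cells to lymph nodes, rose by 0.66 (SE 0.196, adjusted p = 0.0409), but 9 of 21 fits without 1 cow lost this call, up to an adjusted p of 0.167 without HY cow 3280. With the 4 indices in 1 fit neither CXCR4 (adjusted p = 0.0802) nor CCR7 (adjusted p = 0.106) was called on the neutrophil index.

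**Figure D3:**
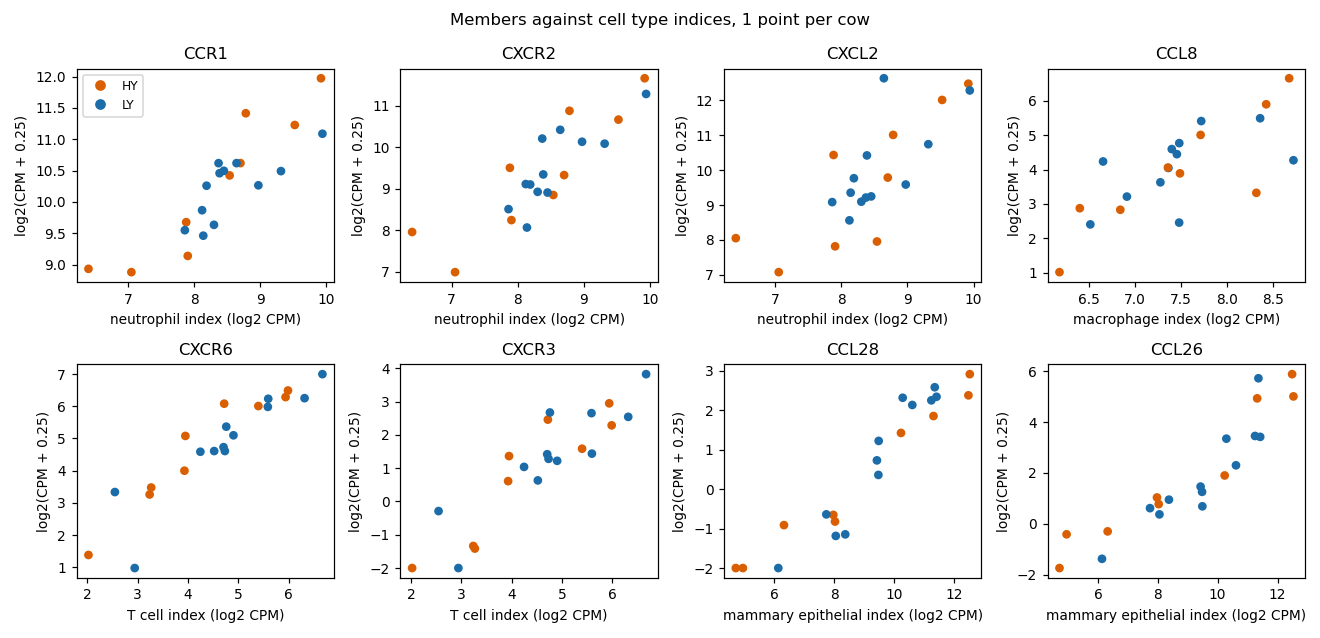
Levels of 8 genes as log2(CPM + 0.25), vertical axis, against the cell type index named on the horizontal axis (log2 CPM), with 1 point per cow (orange: HY, blue: LY). CCR1, CXCR2 and CXCL2 are drawn against the neutrophil index, CCL8 against the macrophage index, CXCR6 and CXCR3 against the T cell index, and CCL28 and CCL26 against the epithelial index, where HY cows 3262 and 3280 are the points farthest to the right at 12.5.

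Pairs of the 38 genes were ranked by Spearman's rho over the 21 cows. All points share their libraries, depth and cell mixture, so these values are descriptions. The median rho of the 703 pairs was 0.06, with 21 pairs at 0.8 or more and 5 at -0.7 or less. The highest was CCL26 with CCL28 at 0.94. Other high values were 0.92 for CCL3 with CCL4 and for CXCR3 with CXCR6, 0.91 for CCR8 with CXCR6 and 0.88 for CXCL2 with IL8. CXCR2 had a rho of 0.87 with its ligand IL8 and 0.85 with CXCL2. The lowest was CCL28 with CXCL16 at -0.82. Among chromosomal neighbours, rho differed between pairs. It was 0.71 for the adjacent CCR3 and CCR1, 0.69 for CXCL2 and CXCL3 and 0.60 for CXCR6 and CCR9. For the likewise adjacent CXCL10 and CXCL11 it was 0.13, for CCL26 and CCL24 0.10 and for XCR1 and CXCR6 0.06. CCL3 and CCL4, at 0.92, are separated by 1 gene. CCL22 had a rho of 0.81 with CCR7, which is not its receptor, whereas CCL20 had one of 0.37 with its receptor CCR6.

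**Figure D4:**
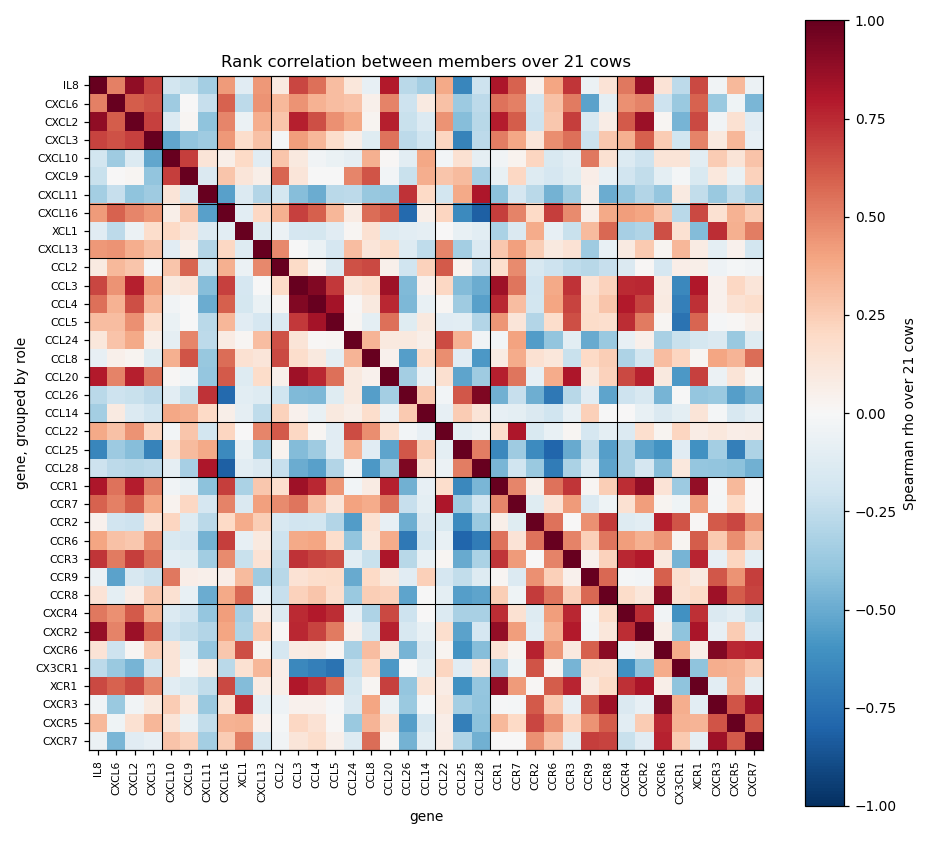
Spearman's rho between each pair of 37 of the 38 genes over 21 cows, with genes in order of role and black lines between roles (red: positive, blue: negative). Red cells include the pairs of IL8, CXCL2 and CXCR2 (0.85 to 0.88) and those of CXCR3, CXCR6 and CCR8, which span more than 1 role. The darkest blue cell is CCL28 with CXCL16 at -0.82.

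Among all genes with a mean of at least 10 counts, the 5 most like IL8 were SAMSN1 with a rho of 0.93, the cytokine IL1A with 0.91, the prostaglandin synthase PTGS2 with 0.89, and DUSP6 and CXCL2 with 0.88. For CXCR4, the receptor with the highest count, they were GADD45B and the NF-kappa-B inhibitor NFKBIA with 0.88, and RNF41, SQSTM1 and HDAC1 with 0.86.

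Genes that act downstream of the receptors or upstream of the ligands were read from 2 lists. Of 32 receptor signalling genes tested, 12 were called with a positive slope on the neutrophil index, against 5.12% of all genes, and 0 with a negative slope, where 1 had an unadjusted p under 0.05, against 9.9% of all genes. Among those with the lowest p were the Src family kinase FGR (slope 1.17, SE 0.14, adjusted p = 1.06e-05), the regulator RGS2 (1.18, adjusted p = 0.000167) and the exchange factor VAV1 (0.87, adjusted p = 0.00105). Of 17 NF-kappa-B response genes, 10 were called with a positive slope, led by BCL3 (1.06, adjusted p = 0.000395), TNIP1 (0.92, adjusted p = 0.000887), NFKBIE (0.95, adjusted p = 0.00135) and NFKB1 (0.85, adjusted p = 0.00198). On the macrophage index 4 signalling genes were positive (ARRB1, PLCB2, ADRBK2 and GNG2, slopes 0.30 to 0.66), against 8.5% of all genes, and 1 was negative (GNAI1), against 8.42%. There, 0 NF-kappa-B genes were called in edgeR and 2 had an unadjusted p under 0.05, against 30.6% of all genes. On the T cell index 3 signalling genes (DOCK8 at 0.50, RGS14 at 0.54, GRK5 at 0.35) and IL1A (0.90, adjusted p = 0.0158) were positive, against 3.6% of all genes. On the epithelial index 9 signalling and 5 NF-kappa-B genes were negative, against 9.37% of all genes, with ARRB1 at -0.18 and TNFAIP3 at -0.48 lowest in p, and GNAI1 was the 1 positive gene, against 11.9%.

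Along the lactation period, 0 of the 46 genes passed the adjusted threshold in edgeR, as did 0.0243% of all genes, and 10 had an unadjusted p under 0.05, against 22.3% of all genes. The share of these genes was near that of all genes. DESeq2 called 6 of them after adjustment (CCL25, CXCL2, CXCL3, CXCL9, CXCL12 and IL8) and 689 genes in all. Of the 10 genes, the 5 with positive slopes were IL8, CXCL2, CXCL3, CXCR2 and CCR1, and the 5 with negative slopes were CCL25, CCL26, CXCL9, CXCL12 and CXCL17.

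Per 100 days, the slope of IL8 was 1.56 (SE 0.400, p = 0.000657, edgeR adjusted p = 0.0639), that of CXCL2 1.17 (SE 0.403, adjusted p = 0.109), of CXCL3 0.95 (adjusted p = 0.128), of CXCR2 0.71 (adjusted p = 0.144) and of CCR1 0.47 (adjusted p = 0.191). IL8 stayed between 1.28 and 1.69 in the fits without 1 cow, with unadjusted p of at most 0.00225, and its rho with lactation days was 0.64. CXCL3 was 44.6 to 547 CPM in HY (median 125) and 78.6 to 1589 in LY (median 148). CXCR2 lost its unadjusted p under 0.05 without HY cow 3014 (p = 0.0785), and CCR1 without HY cow 3014 (p = 0.141), HY 3262 or LY 3407. With the neutrophil index as a covariate CXCL2 (slope 0.44), CXCR2 (0.24) and CCR1 (0.17) no longer had p under 0.05, whereas IL8 did. CXCL3 lost it with the T cell (0.63, p = 0.128) or the epithelial index (0.63, p = 0.0595) as a covariate, and CCR1 with the T cell index (0.47, p = 0.0521). The receptor signalling list had 0 calls in edgeR, against 0.0243% of all genes. At an unadjusted p under 0.05 it had 9 of 32, all positive. Of all genes 22.3% had such a p, and 9.58% had it with a positive slope. The 9 were led by LYN (0.64, adjusted p = 0.0919), DOCK8, FGR and RGS14. The NF-kappa-B list had 0 calls in edgeR and 6 of 17 at an unadjusted p under 0.05, all positive, against the same shares. Among them were IL1A at 1.67 (adjusted p = 0.0639), TNFAIP3 at 1.32 (adjusted p = 0.0811), IL1B at 0.99 and NFKB1 at 0.51.

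Negative slopes per 100 days were -0.85 for CCL25 (SE 0.227, p = 0.000948, edgeR adjusted p = 0.0672), -0.89 for CXCL9 (SE 0.280, adjusted p = 0.0875) and -1.45 for CCL26 (SE 0.486, adjusted p = 0.101). CXCL9 was 0.393 to 19.7 CPM in HY (median 3.83) and 1.17 to 26.3 in LY (median 4.57), with the highest value in LY cow 3369 at 79 days. The related CXCL10, 0.196 to 36.8 in HY and 2.11 to 37.9 in LY, was highest in the same cow. CXCL12 had a slope of -2.71 (adjusted p = 0.0639), which without HY cow 3262 was -1.02 (p = 0.0627). CXCL17, a mucosal chemokine with 41 counts of which 20 were in LY cow 2893, had a slope of -1.20 (adjusted p = 0.216) that turned to 0.51 (p = 0.371) without that cow, and 11 fits without 1 cow gave p over 0.05 with the sign kept. CCL26 no longer had a p under 0.05 with the epithelial index (slope -0.39, p = 0.138) or the T cell index (-0.79, p = 0.167) as a covariate. A different course of any gene over lactation in HY and LY was tested as an interaction, and edgeR called 0 of all genes (0%), with 3 of the 46 at an unadjusted p under 0.05, against 2.61% of all genes, namely CXCL12, CXCR4 and CXCR5.

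**Figure D5:**
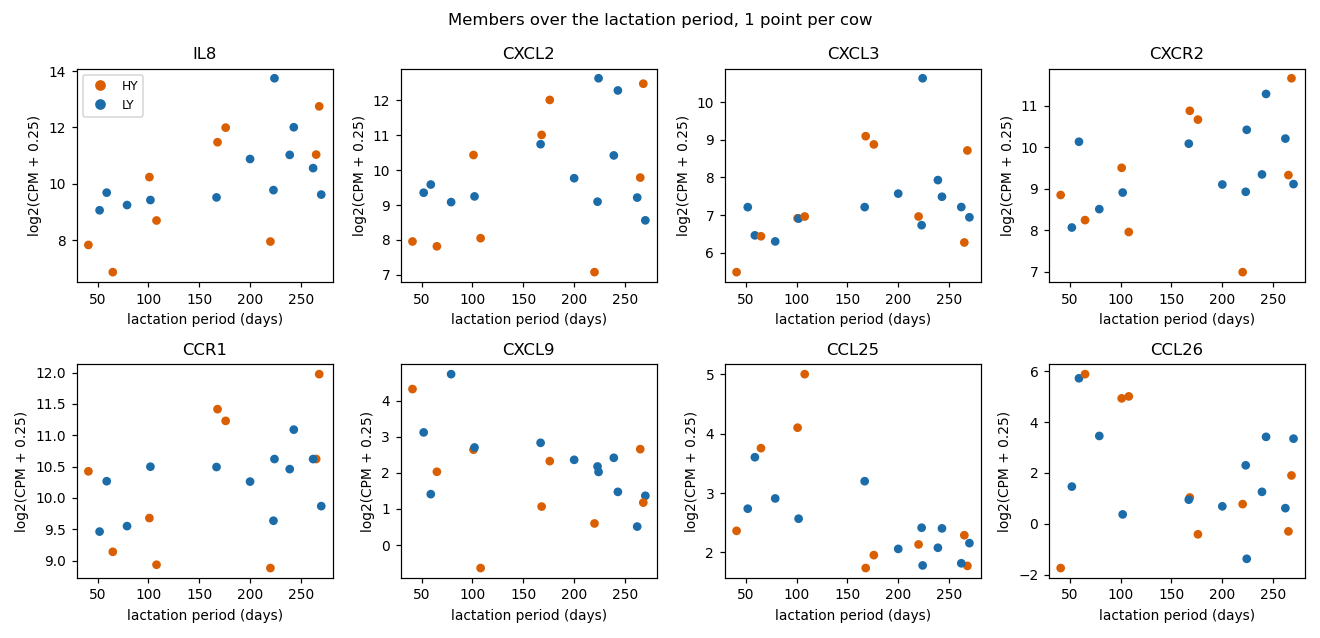
Levels of 8 genes as log2(CPM + 0.25), vertical axis, against the lactation period in days, with 1 point per cow (orange: HY, blue: LY). The highest IL8 of the 8 cows up to 108 days is 1206 CPM, and that of all cows is 13736 CPM in LY cow 7643 at 224 days. CCL26 is highest at 59 and 65 days with 52.7 and 58.9 CPM.

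Between HY and LY, 0 of the 46 genes were called in edgeR after adjustment, as were 0 of all genes (0%). At an unadjusted p under 0.05 there were 2, against 4.7% of all genes, and DESeq2 gave 0 at either threshold. The values of HY and LY overlapped in all of the 46 genes, and the share over all genes was not computed. CXCL12 was higher in HY by 3.71 on the log2 scale (SE 1.02, p = 0.00126, edgeR adjusted p = 0.999), and without HY cow 3262 by 1.02 (p = 0.245). CXCL17 was 0 to 0.292 CPM in HY (median 0) and 0 to 2.29 in LY (median 0.0703). Its difference of -2.80 (SE 1.18, p = 0.0260, edgeR adjusted p = 0.999) was -1.31 (p = 0.169) without LY cow 2893. Among the genes with the most counts, the differences were -0.23 for IL8 (SE 0.698), 0.14 for CCL2 (SE 0.396), 0.05 for CXCL2 (SE 0.653) and 0.34 for CCR1 (SE 0.354), each smaller than its SE, and 0.54 for CXCR4 (SE 0.375), and none of them had an unadjusted p under 0.05 in edgeR. Both pathway lists had 0 calls in edgeR at either threshold. Their lowest p were those of RHOA (0.30, p = 0.102) and CDC42 (0.25, p = 0.135) in signalling and TNF (-1.37, p = 0.0622) and IL6 (-1.30, p = 0.0884) in the NF-kappa-B list, all at an edgeR adjusted p of 0.999.

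The breeding value of milk yield was regressed on log2(CPM + 0.25) of each gene over the 21 cows. At an unadjusted p under 0.05, 2 of the 46 genes were found, against 2.49% of all genes, and both had an adjusted p of 1. CCL14, a chemokine present in plasma, had a slope of -108 units per doubling (SE 41.4, regression p = 0.0174), and CCL19, a ligand of CCR7, of -237 (SE 105, regression p = 0.0366). CCL14 was 0 to 2.72 CPM in HY (median 0.438) and 0.0898 to 5.44 in LY (median 0.623). CCL19 had 28 counts in all and was 0 to 0.147 in HY and 0 to 0.687 in LY. CCL14 was kept without each cow, while CCL19 was lost in 7 such fits, up to p = 0.182 without LY cow 2893. With parity and lactation period in the model neither had p under 0.05. The slopes were then -102 for CCL14 (regression p = 0.0523) and -260 for CCL19 (regression p = 0.0700). CDC42 was the 1 signalling gene with p under 0.05 (506, p = 0.0429), and the NF-kappa-B list had 0, its lowest p being that of NFKBIA (43.1, p = 0.415).

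The other breeding values gave 0 of the 46 genes for milk fat, against 2.3% of all genes at an unadjusted p under 0.05, 2 for milk protein, against 2.3%, and 4 for milk solid, against 1.65%, with all adjusted p at 1. For milk protein these were CCL14 (-3.01 units per doubling, p = 0.0148) and CXCL10 (-2.21, p = 0.0264). For milk solid they were CCL19 (-22.6, p = 0.00910), CCL14 (-8.49, p = 0.0179), CXCL10 (-6.40, p = 0.0264) and CXCL9 (-8.08, p = 0.0288). For milk fat the lowest p was that of CXCL10 (-1.57, p = 0.104). With parity and lactation period as covariates all 6 of these milk protein and milk solid values lost their p under 0.05. For milk protein they were then -2.69 for CCL14 (p = 0.0565) and -1.99 for CXCL10 (p = 0.0562). For milk solid they were -18.4 for CCL19 (p = 0.0752), -6.15 for CCL14 (p = 0.109), -5.17 for CXCL10 (p = 0.0643) and -7.26 for CXCL9 (p = 0.0591). That of CCL14 for milk solid was also lost with a pseudocount of 1 (p = 0.0526). The traits share the 21 cows, and the sign was negative in each of these slopes.

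The remaining genes had no call that has not been given. CCL27, a skin chemokine, was 0 to 1.60 CPM in HY and 0.285 to 3.12 in LY, and CXCL13, which attracts B cells, was 0 to 3.06 and 0 to 2.29. CXCL14 had 21 counts, of which 10 were in LY cow 3264, and both counts of CCR4 were in LY cow 3369. CCR3, the eosinophil receptor of CCL24 and CCL26, was 0 to 19.0 CPM in HY and 1.09 to 7.50 in LY, with a neutrophil slope of 1.12 (SE 0.348, adjusted p = 0.0511). CX3CR1, the fractalkine receptor, was 5.30 to 92.5 CPM in HY and 4.69 to 64.8 in LY. Genes of the family under other names were PF4, at 2.25 to 83.8 CPM over the 21 cows, CCRL2, at 33.3 to 1736, and CMKLR1, at 2.16 to 63.8, and CCRL1, DARC and CCBP2 had means below 10 counts.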

How the data were processed

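Milk somatic cell RNA of 21 Holstein cows was sequenced in pairs of reads. The authors trimmed the reads with Trimmomatic, mapped them to bosTau7 (TopHat2, Bowtie2), used HTSeq for counting, and deposited raw counts per gene without normalization. Strand setting and versions are not given in the sources used here. The deposited tables hold 23 rows whose symbols are dates, and a row without a gene name, which took 0.0360% to 0.151% of counts, was left out with the HTSeq summary rows.

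The members and gene lists were chosen with earlier results of these data known. Counts were scaled with TMM factors of edgeR 4.0.16 in R 4.3.3. Quasi-likelihood tests were fitted to all 12333 genes with a count, against HY over LY, lactation period per 100 days, their interaction, and each of 4 cell type indices. Breeding values were regressed on log2(TMM-normalized CPM + 0.25). The study regressed milk yield on TMM-normalized expression, and the pseudocount and the other traits were added here. Index markers needed a mean of at least 10 counts. P-values measure the spread between cows, and scripts were tested on simulated data. Symbols were matched to RefSeq (ARS-UCD2.0), 48 of 48, 3 of them by a synonym. That build differs, so only neighbour relations are given.

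Alternatives were DESeq2 1.42.0 and its size factors, library totals, a filter of 10 counts in 9 cows, a pseudocount of 1, Huber regression, covariates, and leaving out cows. Every member was to be named (values of 1 are not reported here), with values per group for those called and per cow for the 5 genes with the highest ratio of highest to median CPM (IL8, CCL20, CCL26, CCR8 and CXCL11). Depth limits genes with few counts, and intervals and floors cover counting error only.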

Additional observations from a re-analysis of the deposited data

Results flagged for a closer look

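In the 9 HY cows, each of the 38 genes with a mean of at least 10 counts was examined for a cow that stood apart, and 2 were found, while chance gives about 1 in 20. CXCL11 in HY cow 3280 was 23.8 CPM against 0.375 to 2.64 in the other HY cows, a gap of 0.581 of the range on the log2 scale. CCR8 in HY cow 2920 was 6.25 CPM against 0 to 1.03 in the others, a gap of 0.50 of the range.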

How the results depend on the processing

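Of 523 values of single genes under other settings, with fits that left out 1 cow not counted, 393 stayed on the same side of the threshold, 129 lost it and 1 turned its sign. That was CCL8 on the epithelial index, 0.050 with the 4 indices in 1 fit. CXCL17 was -1.89 to 0.51 per 100 days without 1 cow, the last without LY cow 2893. The call counts given in this section are of the 46 genes, and the causes were not tested. The shares of all genes called under the other settings are not given beside them. A change in a count therefore cannot be told apart from a change over all genes. HY against LY at unadjusted p had 2, but 0 with the filter of 10 counts in 9 cows and 0 in DESeq2. Lactation had 0 after adjustment, but 6 in DESeq2 and 1 with the macrophage index as a covariate, and at unadjusted p 10, but 6 with the T cell index as a covariate. Milk yield had 2, but 1 with the filter, 1 with library totals, 4 in edgeR and 0 with parity and lactation period. With the latter, milk protein fell from 2 to 0 and milk solid from 4 to 0.

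Without HY cows 3262 and 3280, chosen after seeing the data, the calls were 6 rather than 11 on the neutrophil index, 4 rather than 11 on the T cell and 7 rather than 13 on the epithelial index, of which 6 were shared. With the 4 indices in 1 fit there were 5 on the neutrophil, 2 rather than 5 on the macrophage and 3 on the epithelial index. The macrophage index gave 13 with library totals and 8 with CSF1R in its place. The T cell index gave 5 with mapping set as a covariate, 2 in the 16 cows of lower mapping rate and 2 with CD3E in its place, and the epithelial index 7 in the 16 cows. Leaving out each cow gave 2 to 4 for HY against LY at unadjusted p, 0 to 3 for lactation after adjustment, 1 to 4 for milk yield, 6 to 14 on the neutrophil, 2 to 8 on the macrophage, 4 to 11 on the T cell and 8 to 14 on the epithelial index. The lowest of these were without HY cow 3235 on the neutrophil, HY cow 3280 on the macrophage and T cell, and LY cow 7643 on the epithelial index. With library totals the median slope of all genes moved from 0.02 to -0.17 for HY over LY and from 0.02 to 0.18 per 100 days. CSF3R as a single marker was not run, since it is not among the rows used, and TREM1 took its place, also chosen after seeing the data. No paired analysis was possible because the cows share no labels that pair them. Depth limits the genes with means under 10 counts.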
